A study of Mus musculus with 2 samples.

Results

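Shared far peaks are H4K12la peaks of the control library that lie farther than 10 kb from every annotated gene, coding or not, and that overlap a peak of the lactate library by at least 1 bp. They numbered 2597, which was 18.2% of the 14278 control peaks at that distance and part of the 46561 control peaks on chromosomes 1 to 19 and X. The shared far peaks met 2620 of the 39727 lactate peaks. These peaks were chosen by the peak calls of both libraries and by gene positions, so the overlap itself and the pileups and widths behind the calls are given as descriptions, with no test.

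The study mapped H4K12la, histone H4 carrying lactyl-lysine at position 12, by CUT&Tag in Neuro2a cells, a line from a mouse neuroblastoma. The control cells were given NaCl and the other cells 25 mM lactate, and nothing else differs between the groups in the labels. The study asks whether H4K12la regulates transcription, and its title concerns POMC neurons, which this tumour line is not. Each group was 1 library of 1 cell line, so the values below carry no replicate error and the groups could not be tested against each other. Each interval given here covers the counting error of the reads or peaks and nothing more.

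Histone lactylation attaches the acyl group of lactate to lysines and is usually described at active promoters and enhancers. Enhancers can lie far from the gene they act on, so a distal peak does not name its target, and the nearest gene is given here only as an address. In CUT&Tag an antibody guides a transposase to the mark, and the enzyme also cuts open chromatin to some degree without it. Mouse chromosome arms begin beside large satellite repeat arrays, of which the assembly holds only fragments, so reads from many repeat copies can pile up on the few copies that are present.

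The lists give no read totals. The background recovered from the peaks, the number of overlapping reads expected at a random place, was 2.96 reads for control and 3.06 reads for lactate, which would make the lactate library 3.43% deeper if both lists were made with the same read extension. Of 12 genes chosen as markers of a noradrenergic neuronal line, 4 had a peak within 1 kb of a gene end in both libraries (Isl1, Stmn2, Map2 and Syt1), 3 in the lactate library alone (Phox2a, Elavl4 and Tubb3), 1 in the control alone (Hand2) and 4 in neither, among them the catecholamine enzymes Th and Dbh. Of 12 markers of other cell types, 10 had a peak in neither library, and Mbp and Apoa2 had one in the lactate library alone. Over all coding genes, 28.8% had such a peak in both libraries, 16.3% with lactate alone, 3.36% in control alone and 51.6% in neither. The marker counts were not tested against these shares.

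How often a far control peak had a lactate partner depended on its height. Summit pileup is the number of reads that overlap the highest point of a peak, and the lowest called peak had 11 in each library. At a control summit pileup of 11 to 12 reads, 5.93% of far control peaks had a partner (exact 95% interval 5.09% to 6.86%). The share was 14.99% at 15 to 16 reads, 44.4% at 20 to 24 reads and 74.7% at 25 to 39 reads. At 40 reads or more it was 88.8% (84.1% to 92.5%), or 213 of 240 peaks.

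Control peaks nearer to genes had partners more often at low pileup. At 11 to 12 reads, 61.8% of control peaks within 1 kb of a coding gene's end had a partner, and 20.4% of those inside a gene. At 40 reads or more the shares were 90.0% at gene ends, 92.5% inside genes and 88.8% far from genes, with intervals that overlap. Over all heights, 81.3% of gene-end peaks, 38.3% of peaks inside genes, 33.1% of the remaining peaks and 37.7% of all control peaks had a partner. The share among far peaks was 36.6% and 59.5% when both lists were held to a −log10 q of at least 5 and 10, and 62.4% when only the control list was held to 5. It was 11.2% when the summits had to lie within 100 bp of each other.

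**Figure D1:**
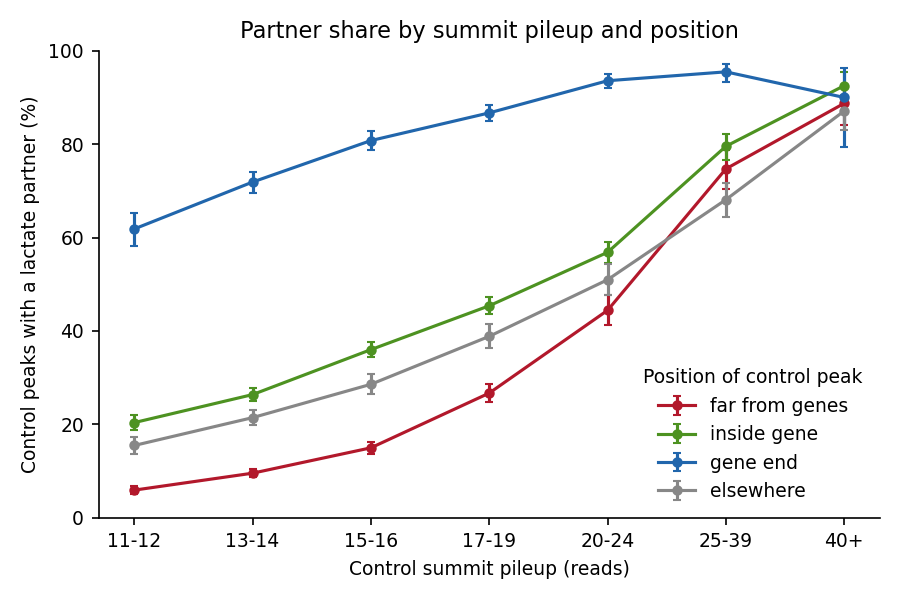
Share of control peaks that overlap a lactate peak (vertical axis, percent) by control summit pileup (horizontal axis, classes in reads) for 4 kinds of position, with exact 95% intervals of the counting error. The far peaks start at 5.93% in the lowest class, below the other 3 lines, and reach 88.8% in the highest class, where the 4 intervals overlap.

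Compared with the 11681 far control peaks that had no partner, the shared far peaks were higher, wider and nearer to genes. Their median summit pileup was 18 reads against 14, and their median width 294 bp against 174 bp. The median distance to the nearest gene of any kind was 31.0 kb against 55.2 kb, and to the nearest coding gene 103 kb against 247 kb. Of the shared far peaks 32.4% lay within 20 kb of a gene and 14.8% beyond 100 kb. Among the peaks without a partner these shares were 18.2% and 29.6%. A pileup of 40 reads or more was found in 8.20% of the shared and 0.231% of the other far control peaks. Height and width help a peak to be met in the other list, so part of this contrast belongs to the choice of the peaks.

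The 10 kb limit passed through a continuous range of distances. The 5 shared far peaks closest to it lay 10001, 10002, 10003, 10004 and 10011 bp from a gene, with control and lactate pileups of 16 and 16, 22 and 14, 19 and 14, 13 and 19, and 16 and 15 reads. The 5 shared peaks just outside lay 9998, 9989, 9971, 9967 and 9948 bp from a gene, with 14 and 13, 18 and 15, 14 and 19, 17 and 23, and 52 and 66 reads.

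Paired summit pileups were slightly lower in the lactate library. Each shared far peak was paired with its lactate peak, or with the highest where it met several: 2519 met 1 lactate peak, 76 met 2 and 2 met 3. The control pileups ran from 11 to 298 reads with a median of 18, and the lactate pileups from 11 to 335 with a median of 17. The lactate value was higher at 1062 shared far peaks, equal at 164 and lower at 1371. This made 40.9% higher (38.99% to 42.8%), against 71.1% of all shared control peaks. The median ratio of lactate to control was 0.941, with quartiles of 0.765 and 1.18.

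Peaks at gene ends and inside genes went the opposite way in these libraries. At gene ends the lactate pileup was the higher one at 94.3% of shared peaks, with medians of 17 and 26 reads and a median ratio of 1.56. Inside genes it was higher at 70.0%, with a median ratio of 1.19. At the 3049 shared peaks in the remaining positions it was higher at 55.0% and lower at 1202, with a median ratio of 1.08. With 1 library per group, a change at the far peaks and a different spread of the reads over the genome cannot be told apart. Dividing the lactate pileups by this difference in background left 40.4% higher, and comparing the authors' fold values in place of pileups gave 44.6%. Holding the control list alone to a −log10 q of at least 5 gave 26.6%. The median ratio was 1 under 4 alternatives: an overlap of at least 50% of the control peak (48.5% higher, 46.2% to 50.8%), the control summit inside the lactate peak, a limit of 5 kb, and coding genes alone.

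Few pairs differed beyond the counting error of both values. The 95% Poisson intervals of the pair did not overlap at 15 shared far peaks with the higher lactate value (0.578%) and at 20 with the lower (0.77%). Over all shared control peaks these shares were 1.39% and 0.188%. At shared gene ends they were 174 of 5769 peaks, or 3.02%, with the higher lactate value, and 2 peaks with the lower.

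**Figure D2:**
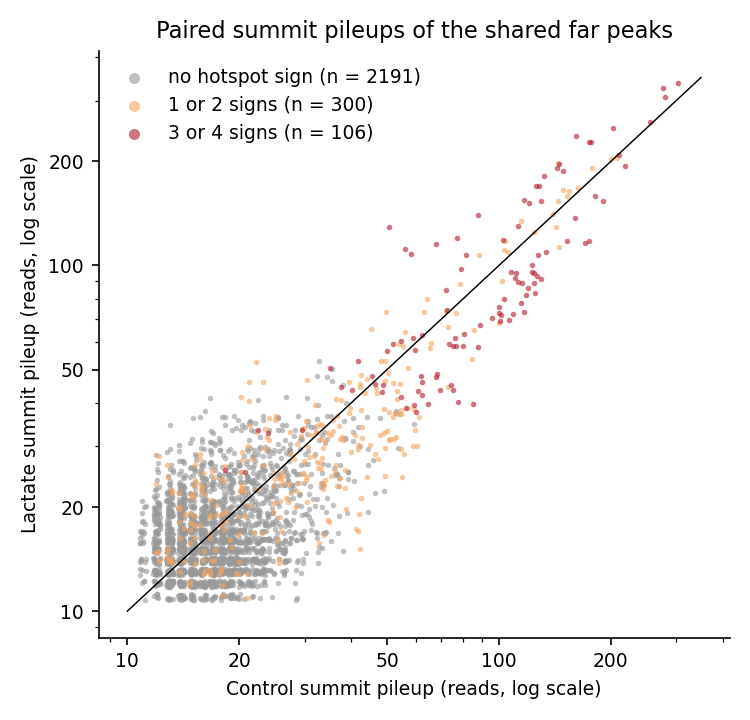
Control (horizontal) and lactate (vertical) summit pileup in reads, on log axes, of each of the 2597 shared far peaks. Points are spread by a small random shift so that equal whole numbers do not hide each other, colour gives the number of hotspot signs, and the line marks equal values. The 2191 peaks with no sign crowd at low values with a median of 17 control and 16 lactate reads, while the 106 peaks with 3 or 4 signs reach 298 and 335 reads.

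Widths behaved like pileups, with less stability. The median control peak spanned 294 bp and its lactate partner 269 bp, and the lactate peak was wider at 1161 shared far peaks, equal at 10 and narrower at 1426. That is 44.7% wider (42.8% to 46.6%), against 64.2% of all shared control peaks and 84.5% at gene ends, where the medians were 307 and 582 bp. The direction turned under 4 alternatives: the wider share was 56.7% when the overlap covered at least 50% of the control peak, 51.3% when the control summit lay inside the lactate peak, and 52.1% and 51.6% at a −log10 q of at least 5 and 10 in both lists. A short partner that meets a peak only at its edge counts under the 1 bp rule and not under the first of these.

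The summits of a pair lay a median of 70 bp apart, 41.0% within 50 bp and 61.1% within 100 bp. The partner covered at least 50% of the control peak at 1804 shared far peaks, or 69.5%. At 109 of them (4.20%) the lactate peak was paired with another shared far peak too, so that 2542 different lactate peaks stood behind the 2597 pairs. A pair of neighbouring control peaks 16.6 and 15.8 kb from Zcchc14, for example, shared a lactate peak of 1243 bp.

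The widest shared far peaks were seldom wide in both libraries. In the control the widest was chr6:41879279-41881079, 14.9 kb from Sval2, at 1801 bp with a lactate partner of 292 bp and pileups of 20 and 16 reads. The peak chr7:51326736-51328478, 182 kb from Ano5, was among the 5 widest in both, at 1743 and 1679 bp, with 50 and 33 reads.

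A part of the shared far peaks carried signs that go with repeats or with places where reads map in excess. No repeat annotation or genome sequence was used, so 4 signs were taken from the lists alone: a summit pileup of at least 40 reads in both libraries, a local background of at least 2 times the genome-wide one in both, membership in a run of at least 3 shared far peaks with gaps of at most 10 kb, and a position within 1 Mb of the first sequenced base after the 3 Mb gap at a chromosome's start. A sign describes a peak and does not show that its reads are misplaced. At least 1 sign was carried by 406 shared far peaks, or 15.6% (14.3% to 17.1%). The pileup sign was found at 149, the background sign at 230, the run sign at 257 and the chromosome-start sign at 131.

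The signs often came together: 190 shared far peaks had at least 2, 106 at least 3 and 65 all 4. Those with a sign were 15.6% of the peaks and held 35.8% of the summed control pileup and 35.6% of the summed lactate pileup. Their median pileups were 37.5 and 33 reads on a local background of 7.72 and 7.17 reads, and their summits lay a median of 30 bp apart. The 2191 peaks without a sign had medians of 17 and 16 reads on a background of 3.16 and 3.06 reads, with summits 78 bp apart. The share with a sign was 31.5% and 61.7% of the peaks that passed a −log10 q of 5 and 10 in both lists, and 23.96% of those that passed 5 in the control list. A high pileup and a high background are themselves signs. The higher values of the peaks with a sign, and their larger share at strict limits, therefore follow in part from the definition.

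Leaving out the peaks with a sign left the paired comparison as it was. Among the 2191, the lactate pileup was higher at 40.5% (38.5% to 42.6%), with a median ratio of 0.941, and the lactate peak was wider at 44.0%. Among the 406 with a sign the lactate pileup was higher at 42.9% (38.0% to 47.8%). Counting intervals that did not overlap were found at 4 peaks in each direction without a sign, and at 11 higher and 16 lower with one.

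The highest shared far peaks lay in a few places. The highest of all, chr2:98666211-98667347, had 298 control and 335 lactate reads over a width of 1137 and 1155 bp, and lay 35.3 kb from the nearest gene of any kind and 1035 kb from Lrrc4c. Next to it, chr2:98662233-98662919 had 252 and 261 reads. At the start of chromosome 9, chr9:3024016-3024660 had 285 and 312 reads and chr9:3000258-3001547 had 276 and 326. At the start of chromosome 17, chr17:3029710-3030166 had 219 and 193 reads. All of these stood on a control background of 34.3 to 52.2 reads, and their authors' fold values were therefore only 4.14 to 7.84 in the control list.

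High peaks of another kind stood on a low background. The peak chr7:145340879-145341533, 16.8 kb from Mrgprd, had 204 and 199 reads with fold values of 21.5 and 20.3, and chr2:182012663-182013344, 11.6 kb from Gm14496, had 208 and 204 reads with 20.8 and 19.9. Both lie beyond the last annotated gene of their chromosome. That property was looked at after these values were seen. It was shared by 12 shared far peaks on 10 chromosomes, with control pileups of 15 to 208 reads and a median of 141.5, and lactate pileups of 15 to 204 and a median of 149.5. Of the 12, 10 had a fold of at least 8 in the lists. On chromosome X, chrX:170758097-170758637 and chrX:170880851-170881413 had 162 and 167 reads and 153 and 157 reads. Values at these chromosome ends were close between the libraries, with ratios from 0.975 to 1.27, and chromosome lengths were not analysed here.

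In most of the tightest groups of shared far peaks all pairs went the same way. With gaps of at most 10 kb there were 54 runs of at least 3, holding 257 shared far peaks (9.90%). In 39 of the 54 runs every pair moved the same way, 19 with the lactate pileup higher at all and 20 with it lower at all. With gaps of at most 100 kb this held for 84 of 154 runs, and for 51 of 98 without the peaks that carry a sign. Many tight runs have only 3 pairs, and pairs of a run can share a lactate peak, as at chr15:15089078-15090823. The ratio of the summed pileups ran from 0.437 to 1.91 over the 54 tight runs. It went together with the ratio of the local backgrounds, with a Pearson correlation of 0.94 between their log2 values over the 54 runs. Peaks this close together can share reads with each other's local background, whose window is not given in the sources. Neither the peaks of a run nor these 2 ratios can therefore be taken as independent.

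The longest run had 18 peaks at chr9:3000258-3025971, with Alkbh8 the nearest coding gene. Its control pileups ran from 55 to 285 reads with a median of 129, and its lactate pileups from 108 to 326 with a median of 169. The lactate value was higher at 18 of 18. The median background of this run was 37.7 control and 59.5 lactate reads.

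Runs at other chromosome starts went both ways. Of the 11 tight runs at chromosome starts, the summed pileup was higher in the lactate library in 5 and lower in 6. At chr3:3000229-3040297, nearest to Hnf4g, 12 of 12 pairs were lower in the lactate library, with medians of 70 and 43.5 reads. At chr17:3006480-3030933, nearest to Scaf8, 11 of 11 were lower, with medians of 123 and 91 reads. At chr4:3050050-3069699, nearest to the vomeronasal receptor gene Vmn1r2, 8 of 8 were lower, with medians of 106 and 82 reads. Chromosome 16 held both kinds within its first sequenced bases: 7 of 7 pairs were higher at chr16:3114925-3136616, with medians of 24 and 33 reads, and 7 of 8 lower at chr16:3231603-3255109, with 143 and 111.5 reads. At chr18:3004782-3010547, nearest to Vmn1r238, 5 of 5 were higher, with 46 and 53 reads, and at chr11:3100373-3112622, nearest to Sfi1, 4 of 6, with 53.5 and 59.5 reads.

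Some tight runs lay away from chromosome ends. At chr7:64465710-64490385, between Mcee and Apba2, 14 of 14 pairs were lower in the lactate library, with medians of 62 and 40 reads on backgrounds of 24.1 and 13.9. At chr8:20679279-20706891, between Gm21119 and the defensin gene Defb33, 11 of 11 were lower, with 53 and 37 reads. At chr13:65604825-65627963, nearest to Gm19428, 5 of 5 were lower, with 34 and 17 reads. Some runs with a low control pileup went up: 6 of 6 pairs at chr10:118103206-118122843, between Rap1b and Mdm1, with medians of 17.5 and 26.5 reads, and 4 of 4 at chr15:85653837-85664166, between Wnt7b and Ppara, with 21 and 41 reads. Ppara encodes a nuclear receptor that drives fatty acid oxidation genes, and Wnt7b a secreted Wnt ligand.

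**Figure D3:**
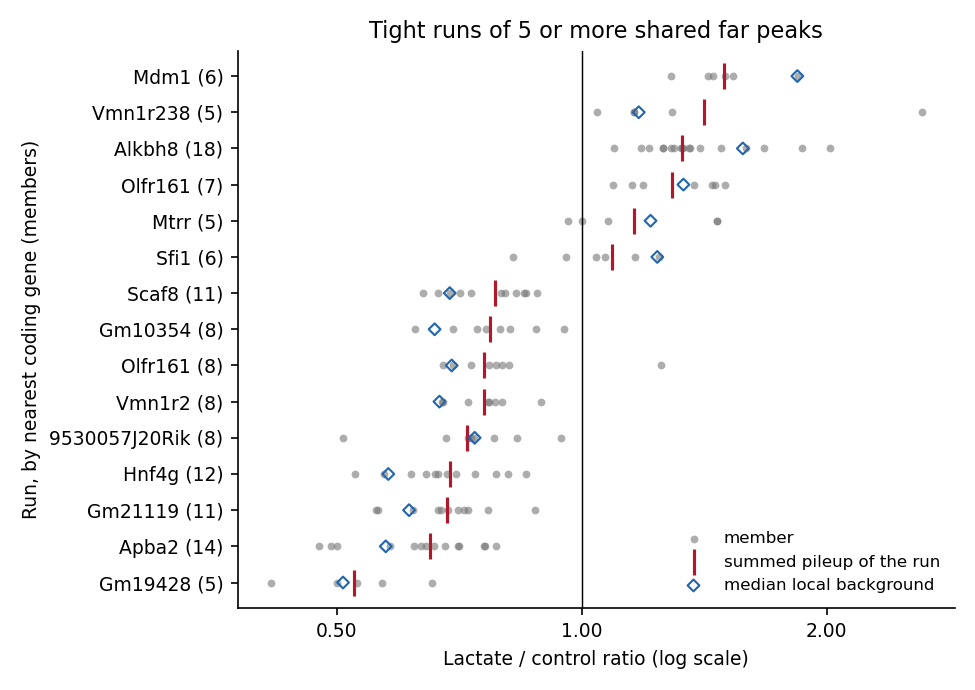
Lactate to control ratio (horizontal, log axis) for the 15 runs of 5 or more shared far peaks with gaps of at most 10 kb, each named by its nearest coding gene with its number of peaks. Grey points are single pairs, red bars the ratio of the summed pileups and blue diamonds the ratio of the median local backgrounds. All 18 points of the run nearest to Alkbh8 lie above 1 and all 14 of the run nearest to Apba2 below 1, with the diamonds on the same side.

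At a wider gap of 100 kb, 154 runs of at least 3 held 699 shared far peaks, or 26.9%. Without the peaks that carry a sign, 98 runs held 349 of 2191, or 15.9%, and with the gap of 10 kb that defines a tight run the share was 9.90%. A place in a tight run is itself a sign, so the fall to 15.9% is in part fixed by the definition. The longest run of this kind had 26 peaks at chr13:67994122-68461361, between BC048507 and Mtrr, a gene of methionine synthesis. Its medians were 19.5 reads in both libraries, 11 of its 26 peaks carried a sign, and the lactate value was higher at 7, equal at 5 and lower at 14. The median gap between neighbouring shared far peaks was 359 kb, and between far control peaks without a partner, which are more numerous, 31.5 kb.

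Runs without any sign also moved in both directions. At chr8:126517282-126687499, between Tarbp1 and Tomm20 and nearest to Irf2bp2, a corepressor gene, 6 of 7 pairs were higher in the lactate library, with medians of 17 and 26 reads. At chr13:111292233-111346196, nearest to Actbl2, 4 of 5 were higher and 1 equal, with 16 and 17 reads. At chr15:42061007-42220089, between Abra and Angpt1, a gene for a ligand of the endothelial Tie2 receptor, 7 of 7 were lower, with medians of 19 and 14 reads. At chr13:85336489-85441029, between Rasa1 and Cox7c, 2 of 7 were higher and 5 lower, with 17 and 17 reads.

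Distance from genes went with the paired ratio. Among the shared far peaks without a sign, the lactate pileup was higher at 52.9% (49.1% to 56.7%) of the 692 that lay 10 to 20 kb from a gene. The share was 41.6% at 20 to 50 kb, 32.4% at 50 to 100 kb, 23.8% at 100 to 200 kb and 22.4% (14.9% to 31.5%) of the 107 beyond 200 kb. The median ratio was 1.06 in the nearest and 0.812 in the farthest class, and medians moved from 16 and 17 reads to 19 and 14. The partner share of far control peaks fell along the same classes, from 28.4% (26.7% to 30.01%) to 8.77% (7.30% to 10.4%).

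The nearest class stood above the farthest within each class of control pileup. Among pairs with 15 to 19 control reads, the lactate value was higher at 45.1% (39.3% to 50.9%) in the nearest and 18.6% (8.39% to 33.4%) in the farthest distance class. Among those with 20 reads or more it was higher at 31.6% and 13.6%, with intervals that overlap, and among those with 11 to 14 reads at 80.2% and at 10 of 20. Classes cut on the control value lean by construction, since a low control value leaves little room below and a high one much: with 25 to 39 control reads 19.5% of pairs were higher in the lactate library, and with 25 to 39 lactate reads 77.5%. The nearest and farthest classes therefore have to be compared within 1 pileup class. Neither the sequence content nor the mappability of the distance classes was tested.

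**Figure D4:**
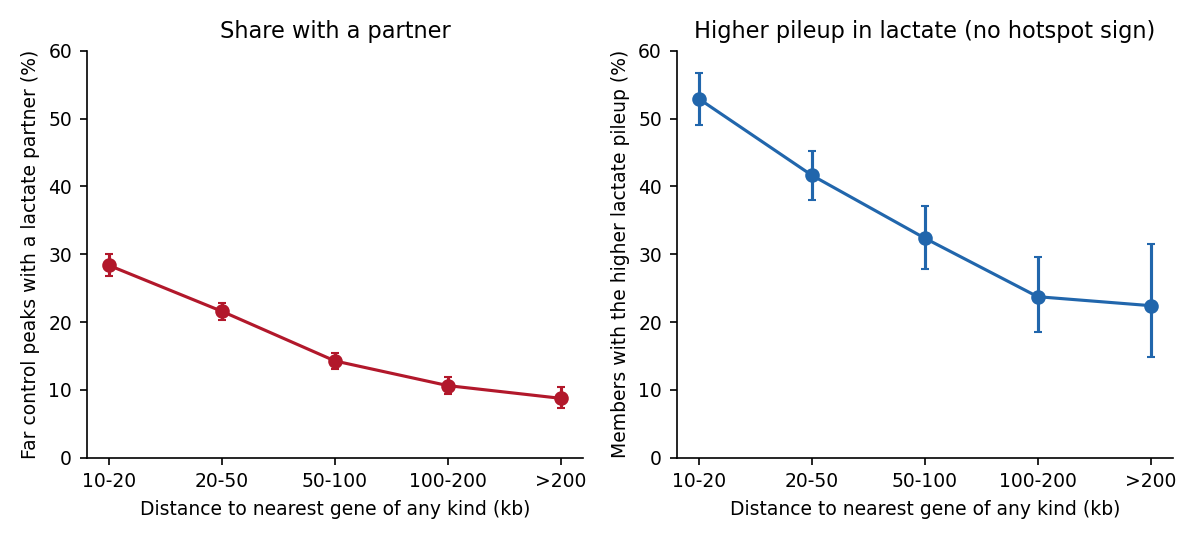
Share of far control peaks with a lactate partner (left) and share of shared far peaks without a sign whose lactate pileup is the higher one (right), both in percent, by distance to the nearest gene of any kind in kb. Bars are exact 95% intervals of the counting error. The left share goes from 28.4% to 8.77% and the right one from 52.9% to 22.4%.

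The 5 shared far peaks farthest from any gene were of 2 kinds, some much lower in the lactate library and some close to equal. The farthest, chr15:15123804-15124191, lay 654 kb from any gene and 1604 kb from Cdh9, with 28 control and 12 lactate reads. The next, chr3:42615588-42615918, lay 634 kb from any gene, with 27 and 13 reads. The other three stood side by side at 622 to 624 kb, within chr15:15089078-15090823, with 28 and 29, 29 and 32, and 24 and 32 reads, and carried 2 signs each.

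Chromosomes differed in how densely shared far peaks lay. The density was counted per Mb of sequence farther than 10 kb from any gene, up to the last listed gene or peak. It was 6.48 per Mb on chromosome 13 and 5.00 on chromosome 15, against 1.14 on X and 1.33 on chromosome 14. Without the peaks that carry a sign it was 5.08, 4.43, 0.961 and 1.24. All far control peaks stood at 28.7 per Mb on chromosome 13, 32.5 on 15 and 5.78 on X, and far lactate peaks at 13.3, 11.7 and 2.23. Chromosomes 13 and 15 were thus dense in both lists, and copy number in this line was not tested. The paired pileups did not follow the density in a simple way: the median ratio without signs was 0.895 on chromosome 13, 0.857 on 15, 1.06 on 11 and 1.07 on 17.

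**Figure D5:**
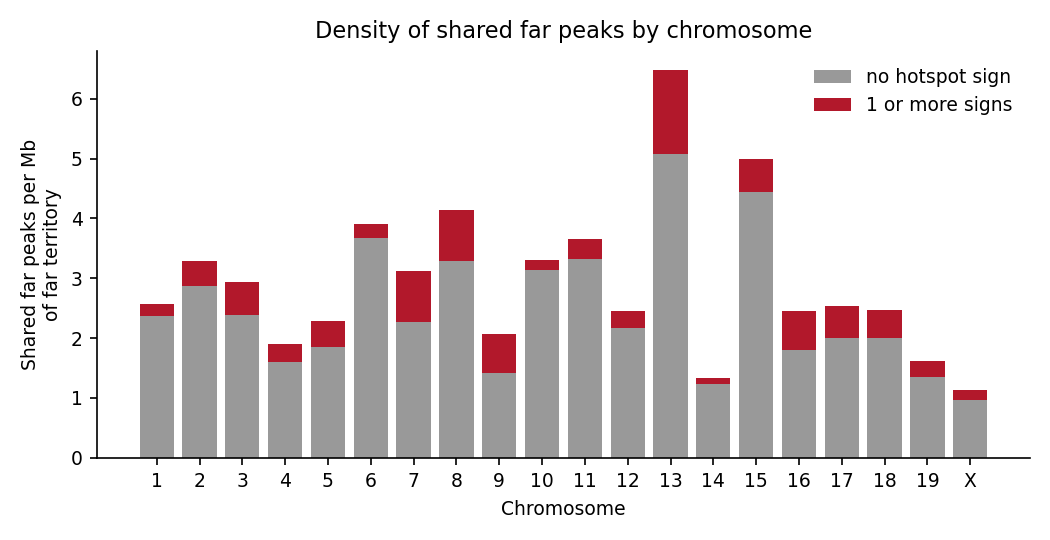
Shared far peaks per Mb of sequence farther than 10 kb from any gene (vertical axis) for chromosomes 1 to 19 and X, stacked by whether a peak carries a hotspot sign. Chromosomes 13 and 15 stand highest at 6.48 and 5.00 per Mb, and X is lowest at 1.14.

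Flanking genes were many and mostly had 1 shared far peak each. The nearest coding genes numbered 1475, which is 6.78% of 21757 coding genes, at a median distance of 103 kb. A single shared far peak was nearest to 949 of them, while 61 had at least 5, or 40 when peaks with a sign were left out. For comparison, 12.7% of coding genes were nearest to any far control peak, and 53.3% of those had a shared one. Large gaps between genes hold more far peaks, so long intergenic regions weigh in every count of this kind. The nearest gene of any kind was a pseudogene for 32.6% of the shared far peaks, a long noncoding RNA for 29.7% and a coding gene for 27.8%. For far control peaks without a partner it was a pseudogene for 42.1%, a long noncoding RNA for 26.3% and a coding gene for 19.7%.

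Genes next to shared far peaks lacked a gene-end peak about as often as coding genes in general, but differed in which library had one. Of the 1369 genes nearest to a shared far peak without a sign, 32.9% (30.5% to 35.5%) had gene-end peaks in both libraries, 10.6% had them only with lactate, 6.21% only in control cells and 50.3% nowhere. Over all coding genes these shares were 28.8%, 16.3%, 3.36% and 51.6%. For genes nearest to far control peaks without a partner they were 24.4%, 7.83%, 7.96% and 59.8%.

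The coding genes nearest to most shared far peaks, when peaks with a sign were left out, flanked wide gene-poor intervals. Arrdc3, an arrestin-domain gene that acts on adrenergic receptor signalling, was nearest to 16 between 124 and 1318 kb away. Their control pileups ran from 15 to 34 reads with a median of 18.5 and their lactate pileups from 11 to 25 with a median of 14. The lactate value was lower at 14 of 16. Slc39a10, a zinc importer gene, was nearest to 12, with medians of 19 and 15 reads and 9 lower. Cdh9, a cadherin gene, was nearest to 11, with medians of 21 and 13 reads and 9 lower.

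Several other genes with many such peaks leaned the same way. Cox7c, which encodes a subunit of cytochrome c oxidase, was nearest to 10, with 18 and 15 reads and 9 lower. Fam135b was nearest to 8, lower at 8 of 8, with 17 and 13.5 reads. Csmd3, lower at 7 of 8 and equal at 1, had 17.5 and 13.5 reads, and Cbln4, a gene of the cerebellin family of synapse organisers, had 22 and 15.5 reads and 7 of 8 lower. Kcnv1, a gene for a modifier subunit of potassium channels, was lower at 7 of 7, with 19 and 13 reads. Slc16a7, a monocarboxylate transporter gene, was nearest to 7, with 19 and 13 reads and 6 lower. Over all 2191 shared far peaks without a sign the medians were 17 and 16 reads, and the lactate value was lower at 1147. It was lower at 256 of the 417 that lay 50 to 100 kb from any gene, and at 171 of the 240 at 100 to 200 kb. How far distance accounts for the counts at single genes was not tested. Not every gene with many peaks had a low lactate median: Rasa1, a gene for a Ras GTPase activator, was nearest to 8 with 17 and 16.5 reads, BC048507 to 6 with 19.5 and 18 reads, and Cdh6 to 6 with 18.5 and 16.5 reads. Mtrr was nearest to 9, with 19 and 15 reads and 6 lower.

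Genes of noradrenergic and sympathetic identity formed the first list. Of 20 listed, 6 were nearest to a shared far peak, and 7 to any far control peak. Isl1, a LIM homeobox regulator of neuronal fate, was nearest to 6 peaks between 105 and 572 kb away, with control pileups of 23, 22, 20, 15, 20 and 24 reads and lactate pileups of 20, 26, 20, 13, 26 and 26. The lactate value was higher at 3, equal at 1 and lower at 2, and Isl1 itself had a gene-end peak in both libraries. Gata3, a zinc finger regulator of sympathetic neurons, had 2 peaks with 18 and 22 control and 17 and 21 lactate reads. Mycn, the oncogene amplified in many neuroblastomas, had 2 with 13 and 17 control and 17 and 17 lactate reads. The 2 peaks nearest to Stmn2 carried signs. The median ratio of the list without signs was 1.08, against 0.941 for all such peaks.

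Neural developmental transcription factors showed lower lactate values at each of their best-covered genes, but not throughout the list. Of 40 listed, 14 were nearest to a shared far peak and 24 to any far control peak. The 29 peaks of the list without a sign had a median ratio of 0.80, with 8 higher. Irx1, an Iroquois homeobox gene, had 3 peaks with 24, 50 and 35 control and 18, 22 and 19 lactate reads, the highest of them at chr13:71945229-71945909, 12.3 kb from the gene. Its neighbour Irx2 had 5, with 21, 26, 25, 27 and 18 control and 16, 15, 16, 18 and 15 lactate reads. Nr2f1, which encodes the nuclear receptor COUP-TFI, had 5, with 18, 20, 25, 14 and 17 control and 11, 12, 14, 12 and 12 lactate reads. All 13 pairs of these 3 genes were lower in the lactate library, against 1147 of the 2191 shared far peaks without a sign. The 8 higher pairs of the list all lay at its other genes. Peaks near the same gene are not replicates of a treatment. The 3 genes lie on chromosome 13, where the median ratio without signs was 0.895.

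Adhesion and guidance genes, which tend to be long and to stand alone, flanked many shared far peaks. Of 50 matched synaptic and neuronal adhesion genes, 35 (70.0%, against 6.78% of all coding genes) were nearest to one. For any far control peak the number was 44 (88.0%, against 12.7%). Of the 44, 79.5% had a shared one, against 53.3% over all coding genes. The 92 peaks of these adhesion genes without a sign had medians of 18 and 15 reads and a median ratio of 0.844, with 24 higher. Of 25 axon guidance genes, 13 (52.0%) were nearest to a shared far peak and 21 (84.0%) to any far control peak. Of the 21, 61.9% had a shared one, again against 53.3%. The 32 peaks of these guidance genes had a median ratio of 0.778, with 6 higher. Plxna2, a semaphorin co-receptor gene, was lower at 6 of 6, with 20 and 16 reads. Unc5d, a netrin receptor gene, was lower at 5 of 7 and equal at 2, with 19 and 14 reads. Efnb2, which encodes the ligand ephrin-B2, was higher at 3 of 5, with 15 and 16 reads.

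The energy balance list held fewer shared far peaks in number, 16 against 99 for the adhesion list. Of 24 listed, 7 (29.2%, against 6.78% of all coding genes) were nearest to a shared far peak and 10 to any far control peak, and 13 peaks without a sign had a median ratio of 0.944, with 5 higher. Cartpt, which encodes the CART peptides, had 7 shared far peaks within 52.0 to 144 kb, 3 of them with a sign. The 4 without a sign had 16, 12, 14 and 18 control and 13, 19, 21 and 22 lactate reads. Pcsk1, the prohormone convertase that cuts POMC, had 4, with 19, 17, 15 and 18 control and 12, 15, 17 and 17 lactate reads. Foxo1 had 1 with 14 and 23 reads, and Bdnf 1 with 13 and 13.

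The chemosensory receptor genes, a family in large tandem clusters, had a high share of peaks with a sign and seldom had a shared far peak. Of 1474 chemosensory receptor genes, 40 (2.71%, against 6.78% of all coding genes) were nearest to a shared far peak. Those nearest to any far control peak numbered 162, and 24.7% of the 162 had a shared one, against 53.3% over all coding genes. A sign was carried by 50 of the 87 shared far peaks of these receptor genes, against 15.6% of all shared far peaks. These included all 20 nearest to Olfr161, all 12 nearest to Vmn1r2 and all 7 nearest to Vmn1r238, each at a chromosome start. Of 203 zinc finger genes of the Zfp series numbered from 500, 10 (4.93%) were nearest to a shared far peak. Those nearest to any far control peak numbered 21 (10.3%), and 47.6% of the 21 had a shared one, against 53.3% over all coding genes. Of the 14 shared far peaks of these zinc finger genes 12 had no sign, and the 12 had a median ratio of 1.04.

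Single pairs with the largest and smallest ratios lay both near the calling limit of 11 reads and well above it. The largest was at chr8:73353585-73353712, 590 kb from F2rl3, with 13 control (6.92 to 22.2) and 35 lactate reads (24.4 to 48.7). It was followed by a peak with 4 signs at chr18:3004782-3005061, with 50 (37.1 to 65.9) and 131 reads (110 to 155). The next were 17 and 41 reads near Zcchc14, 15 and 36 near Epm2a, which encodes the glycogen phosphatase laforin, and 16 and 38 near Ptma, which encodes prothymosin alpha. The summits lay 842 bp apart in the chromosome 18 pair and 633 bp apart in the Zcchc14 pair. The ratios of those pairs therefore compare different places under a wide lactate peak of 1328 and 1243 bp. In the other direction, chr13:66490647-66491066 had 42 (30.3 to 56.8) and 15 reads (8.40 to 24.7), chr12:68770669-68770950 had 28 and 11, and chrX:18505563-18505833, 44.1 kb from Dipk2b, had 28 and 11. With about 17 reads at a summit, a ratio near 2 lies at the edge of the counting error.

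The highest peaks without a sign were looked up after the values had been seen. In the control they were chr16:60947470-60948602, 337 kb from the ephrin receptor gene Epha6, with 58 and 35 reads, chr10:36917814-36918277, 56.0 kb from the histone deacetylase gene Hdac2, with 53 and 38, and chr8:73618878-73619372 with 53 and 38. All 19 peaks without a sign that had at least 40 control reads had fewer lactate reads, with medians of 44 and 30. In the lactate library they were chr13:89383717-89384119, 60.5 kb from Edil3, with 33 and 52 reads, chr9:27213051-27213384, 57.6 kb from the junction protein gene Jam3, with 35 and 50, and chr8:15519800-15520065, 372 kb from Csmd1, with 33 and 48. All 11 with at least 40 lactate reads had fewer control reads, with medians of 33 and 46. Both rules pick on 1 of the paired values, and a peak with at least 40 reads in both libraries has a sign and is in neither set.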

How the data were processed

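H4K12la CUT&Tag libraries of Neuro2a cells, 1 given NaCl and 1 given 25 mM lactate, were grouped by the treatment in the labels. BWA, deepTools, MACS2 and the build mm10 are named in the submitters' processing notes, while versions, calling settings and any control library were not given in the sources used here. Each library has 1 MACS2 peak list deposited by the authors. Its fold, as deposited, sets the summit pileup as a ratio over that library's own local background. The −log10 p and −log10 q that the authors deposited refer to the summit, and their deposited score restates the −log10 q, multiplied by 10 and cut to an integer. Both lists begin at a −log10 q of 1.30, a q of 0.05. The deposited summit offset gave the summit position. Fold and −log10 q are the authors' values and were used within each list, and no common scale of total signal exists.

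The pileup and background were recovered from fold, taken as (pileup + 1)/(background + 1), and the Poisson p. An integer pileup that returned the deposited −log10 p to within 0.001 was found for 46560 of 46561 control and 39727 of 39727 lactate peaks. Read totals are unknown. The 31 control and 41 lactate peaks on Y and 6 in each list on the mitochondrial genome were left out. Genes came from the RefSeq table of GRCm38.p6 (49551 genes, 21757 coding), without 388 genes whose listed positions begin inside the 3 Mb chromosome-start gap. That table has no strand, so a gene end is either end. The genome sequence and repeats were not analysed here. Shares have exact Clopper-Pearson and pileups exact Poisson 95% intervals. Steps were tested on simulated data.

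The members and gene lists were chosen with earlier results of these data known. The rule for names took the 10 highest control peaks, the 8 largest and 8 smallest ratios, the 5 widest per library, the 5 farthest from genes, the 5 on either side of the limit, the 6 longest runs at 100 kb and 4 at 10 kb, the 15 genes with most peaks and up to 4 genes per list. Of the widest peaks per library, 1 named by the rule is not reported here. Names outside this rule were chosen after their values were seen: the other runs, the runs and genes without signs, the peaks past the last gene and the highest peaks without signs. One listed adhesion gene was an older symbol with no match. Alternatives changed the overlap rule, distance, gene set, thresholds, list lengths, run gaps and sign limits. Python 3.11.15 was used with pandas 2.3.3, numpy 2.4.6, scipy 1.17.1 and matplotlib 3.10.9.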

Additional observations from a re-analysis of the deposited data

How the results depend on the processing

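The 6 values compared were the share of far control peaks with a partner (18.2%), the shares of shared far peaks with the higher lactate pileup (40.9%), the wider lactate peak (44.7%), a place in a run (26.9%) and a hotspot sign (15.6%), and the number of nearest coding genes (1475). With an overlap of at least 50% of the control peak they were 12.6%, 48.5%, 56.7% (reversed), 22.4% and 17.2%. With the control summit inside the lactate peak they were 14.03%, 44.9%, 51.3% (reversed), 23.1% and 17.1%. With summits at most 100 bp apart, the partner, run and sign shares were 11.2%, 18.1% and 17.2%. Beyond 5 kb from genes the first 4 were 19.99%, 44.6%, 46.8% and 29.5%. Beyond 20 kb all 6 were 15.5%, 35.8%, 42.0%, 24.3%, 13.8% and 970, and beyond 50 kb 11.98%, 28.4%, 36.8%, 18.9%, 10.7% and 494. Against coding genes alone they were 22.3%, 44.4%, 47.6%, 40.2%, 20.1% and 2301. With both lists held to a −log10 q of 5 they were 36.6%, 43.4%, 52.1% (reversed), 18.7%, 31.5% and 401. With 10 in both they were 59.5%, 45.2%, 51.6% (reversed), 25.0%, 61.7% and 135. With 5 in the control list alone they were 62.4%, 26.6%, 34.4%, 18.7%, 23.96% and 629. Stricter lists hold fewer peaks, and the cause of the reversals was not tested. Lists of equal length gave a partner share of 20.3%. Without peaks that carry a sign the partner share was 15.3% and the run share 15.9%, where tight runs are left out by definition. Without chromosome 13 the run share was 23.8%. Gaps of 10, 50 and 200 kb gave run shares of 9.9%, 20.2% and 35.8%. A background of 1.5 and 3 times gave sign shares of 20.6% and 14.1%. The authors' fold in place of pileup gave 44.6% higher, and both flanking coding genes numbered 2333. Peaks past the last annotated gene, an alternative chosen after seeing the data, brought the sign share to 15.7%. Merging peaks at most 100 bp apart changed none of the 6, since the smallest gaps in the lists were 152 and 142 bp. The share with the higher lactate pileup was under 50% in every alternative run, but ties count against it: the median ratio was 1 with the overlap of at least 50%, the summit inside, the limit of 5 kb and coding genes alone, and from 0.805 to 0.975 in the others. No paired analysis was possible because each group has 1 library. Depth limits the rest: a median summit holds 17 or 18 reads, a place under 11 reads is not listed, and an absent call does not show absent signal.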
